A study of Mus musculus with 2 samples.

Results

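A small group of endothelial cells (ECs) from mouse tumours were chosen for high levels of 7 genes, most of them for secreted matrix proteins and matrix-cutting enzymes. The cells came from implanted Lewis lung carcinoma (LLC) tumours, grown under the skin of male C57BL/6 J mice that were 8 to 9 weeks old at implantation, and were sorted as live CD31+ CD45- cells for droplet-based single-cell RNA sequencing. The tumour was injected with PBS or with 14 µg of cGAMP in 70 µl, a cyclic dinucleotide that activates the DNA-sensing adaptor STING. Each condition was 1 library from 1 mouse, with 2517 PBS-treated and 1340 cGAMP-treated ECs kept by the authors, all of the same strain and tumour line and with no genetic change to the host named. The methods place sampling 24 h after the injection, whereas a supplementary legend to the same data gives 6 h.

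The group was taken by a rule on measured values. Each of the 3857 ECs was scored by the mean of its deposited natural log values of 7 genes (Igfbp5, Ctsh, Adamts8, Htr2b, Adamts5, Mmp2 and Eln), and the 100 cells with the highest score, over both libraries pooled, were taken as the set. The set held 58 PBS-treated ECs, or 2.30% of that library (exact 95% interval 1.75 to 2.97), and 42 cGAMP-treated ECs, or 3.13% (2.27 to 4.21). These intervals and all those below cover counting error only, not the difference between mice, and overlap between the libraries. With 1 library per condition no test was possible, and a difference between the libraries cannot be told apart from a difference between 2 mice.

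The genes of the rule cover the making and cutting of the vessel wall. Igfbp5 is a secreted protein that binds insulin-like growth factors and matrix, and Eln is elastin, the rubber-like core of elastic fibres. Adamts5, Adamts8 and Mmp2 are secreted metalloproteases, which trim proteoglycans and collagens. Ctsh is a cysteine protease of lysosomes, and Htr2b is a serotonin receptor. On GRCm38 these protein-coding genes lie at chr1:72857932-72874884 (Igfbp5, minus strand), chr9:90054152-90076089 (Ctsh, plus), chr9:30942562-30963838 (Adamts8, plus), chr1:86099026-86111970 (Htr2b, minus), chr16:85856173-85901828 (Adamts5, minus), chr8:92827291-92853420 (Mmp2, plus) and chr5:134702593-134747323 (Eln, minus). ECs normally lie on a basement membrane of laminin and type IV collagen. Elastic fibres are laid down mostly around larger vessels, where smooth muscle cells supply much of the elastin. Venous ECs in inflamed tissue carry adhesion molecules such as P-selectin (Selp) and the chemokine receptor Ackr1, through which leucocytes leave the blood. Type I interferon, which STING signalling induces, raises a broad set of antiviral genes in most cells.

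The score fell off without a gap. It was 1.94 in the highest cell, 0.786 at rank 50, 0.507 at rank 99 and 0.501 at rank 100, and the first cells left out had 0.490 and 0.485. At rank 200 it was 0.246. Among the ECs outside the set, 64.5% of PBS-treated and 56.1% of cGAMP-treated cells had a score of 0, that is no UMI of any of the 7 genes. The threshold of 100 cells is therefore a place on a slope. The cells were not clustered, so the set is a range of the score and no claim is made that it is a cluster.

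**Figure D1:**
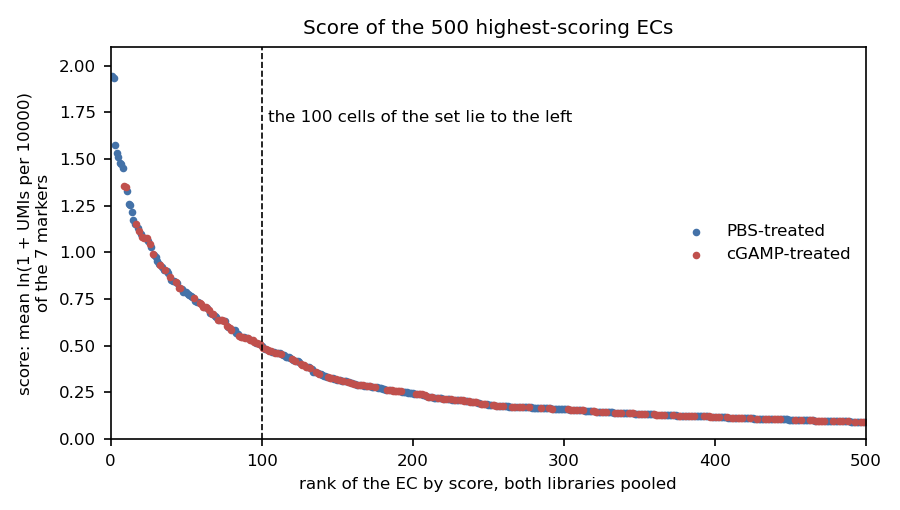
Score (mean natural log value of the 7 genes) of the 500 highest-scoring ECs by rank, one point per cell and coloured by library. The score declines from 1.94 to 0.0901 at rank 500 with no break at rank 100, where the set ends at 0.501.

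The cells of the set were endothelial. Pecam1, the CD31 used for the sort, had a UMI in 99 of 100 members and Cdh5 (VE-cadherin) in all 100. The 1 cell without Pecam1 had 1131 UMIs in all. Summed over cells and given in CPM, UMIs scaled to a sum of 1000000, Pecam1 was at 1115 in the set and 941 in the other ECs of the PBS library, and at 952 and 822 in the cGAMP library. The median log2 ratio of set over other ECs for 12 pan-endothelial genes was 0.05 in the PBS and 0.01 in the cGAMP library. Cells of the set were shallower than the rest: they had a median of 18443.5 UMIs against 30159 in the PBS library, and of 27033 against 41804 in the cGAMP library. After thinning each cell to 5000 UMIs, which left out 3 PBS-treated members, the median number of genes was 2086 against 2025 and 2057.5 against 2004. Mitochondrial UMIs had a median of 5.52% in the set and 4.47% in the other ECs of the PBS library, and of 3.35% and 2.85% in the cGAMP library. No doublet caller was run. The deepest member had 65264 UMIs and the deepest other EC 173134.

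Markers of other cell types were seen in many cells, in the shallower set as well as outside it. Of 52 such markers together, 3 UMIs or more were found in 27 of 58 PBS-treated members (46.6%) and in 51.7% of the other ECs, and in 29 of 42 cGAMP-treated members (69.0%) and 72.5% of the other ECs. The summed level of 10 fibroblast markers was 11.7 CPM in the set and 10.2 in the other ECs of the PBS library, and 21.9 and 4.31 in the cGAMP library. Most of the cGAMP value was Dcn, at 18.5 CPM in 5 cells, whereas Col1a1 was at 2.33 CPM in the PBS-treated members and without a UMI in the cGAMP-treated. Adipocyte markers had no UMI in the set. The platelet integrin Itga2b was also higher in the set, at 45.9 CPM in the set against 12.5 in the other PBS-treated ECs, and at 75.0 against 16.6 in the cGAMP library, in 38 and 35 members, while Pf4, the abundant platelet chemokine, stood at 1.56 and 9.27 CPM. The smooth muscle gene Acta2 was at 24.9 CPM in the PBS-treated members and at 6.49 without the member that held most of it. The part these transcripts play in the results was not tested.

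By the rule's own genes the set stood far apart, as it had to. Igfbp5 was at 873 CPM in the PBS-treated members (823 to 926) and at 858 in the cGAMP-treated (806 to 913), against 2.02 and 3.30 in the other ECs. Ctsh was at 376 and 265 CPM against 6.18 and 7.19, and Eln at 349 and 114 against 7.10 and 4.02. Adamts5 (318 and 182 against 5.14 and 11.8 CPM), Mmp2 (202 and 109 against 4.59 and 3.22), Adamts8 (149 and 126 against 0.793 and 1.32) and Htr2b (134 and 81.7 against 0.507 and 0.225) followed. These values chose the members and carry no further weight. With cells thinned to 5000 UMIs, between 28.6% (Adamts8 and Eln, cGAMP) and 78.2% (Ctsh, PBS) of members had a UMI of a given marker, against 0.156% to 4.12% of other ECs.

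The markers went together also where one of them had no part in the choice. When the 100 cells were chosen again on 6 of the markers, 84 to 95 of them were shared with the set, and the marker left out was still higher there than in the other ECs of both libraries. The smallest log2 ratio was 3.45 (3.18 to 3.71), for Adamts5 in the cGAMP library, and the largest was 7.82 (7.36 to 8.30), for Htr2b in the PBS library. Igfbp5 without its own help was at 664 CPM in 64 PBS-treated cells and 355 CPM in 36 cGAMP-treated cells, though in only 21 and 9 of them a UMI was seen. The choice was made in the same cells and libraries, so that these values describe them and are no independent check.

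Few members held all 7 markers. UMIs of 2 markers were found in 5 members, of 3 in 14, of 4 in 19, of 5 in 36, of 6 in 22 and of 7 in 4. Ctsh (91 members), Mmp2 (87) and Adamts5 (79) were spread over most of the set. Eln (63), Htr2b (60), Igfbp5 (45) and Adamts8 (43) were in fewer. Igfbp5 was uneven between cells, with a single PBS-treated cell giving 29.4% and a single cGAMP-treated cell 24.5% of its UMIs, and up to 330 UMIs in a cell.

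**Figure D2:**
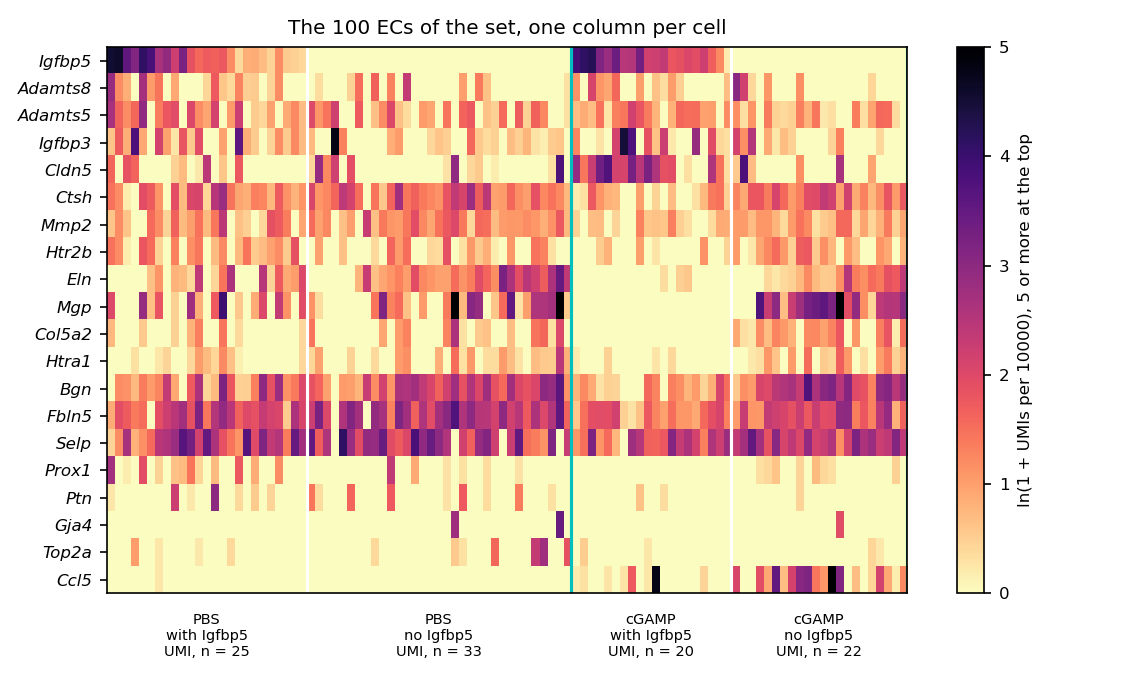
Deposited values, ln(1 + UMIs per 10000), of the 7 markers and further genes in the 100 ECs of the set, one column per cell. Igfbp5 was in 45 columns and Eln in 63, and 18 columns had both.

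Genes outside the rule also differed between the set and the other ECs. Of 5942 genes with at least 20 CPM on either side in both libraries, 339 (5.71%) were at least 2-fold higher in the set than in the other ECs of both libraries and 179 (3.01%) at least 2-fold lower. Because members were chosen on expression, these are descriptions with no test. The 20 genes with the largest ratio, by the smaller of both libraries, included the proteins Col5a2, a fibrillar collagen chain (91.0 CPM against 1.64 in the PBS library and 92.7 against 1.33 in the cGAMP library), and Mgp, matrix Gla protein, an inhibitor of calcification (1047 against 16.7 and 1086 against 33.0). A single cell held 35.5% of the PBS and another 34.7% of the cGAMP Mgp UMIs. Without them the level was 683 and 720 CPM.

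Broader among the members was Lbp, the lipopolysaccharide-binding protein of innate defence. It was at 308 CPM in the set against 6.61 in the other PBS-treated ECs and at 437 against 19.1 in the cGAMP library, with a UMI in 52 of 58 and 38 of 42 members. Klk8, a secreted serine protease, was at 235 and 220 CPM against 8.03 and 10.5, in 43 and 33 members. Sulf1, which trims sulphate groups from heparan sulphate, was at 165 and 95.2 CPM against 5.50 and 4.74, in 48 and 33. These 3 genes marked most of the set, and none was in the rule.

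Transcription factors were also among them. Gata6 was at 59.1 CPM against 0.859 in the PBS library and at 52.2 against 0.965 in the cGAMP library. Foxc2, a forkhead factor needed for the valves of veins and lymphatic vessels, was at 28.8 and 29.5 CPM against 1.42 and 1.38, in 20 members of each library. Other leading genes were Cp (ceruloplasmin), the noradrenaline transporter Slc6a2, the adhesion receptor Adgrg6, Rab27b, the Wnt amplifier Rspo3, the aminopeptidase Anpep, Fam20a, Pgm5, Fam124a, the non-coding Gm12840, Lpcat2 and Fxyd6, with log2 ratios between 4.13 and 6.90 in the PBS and between 4.28 and 5.80 in the cGAMP library.

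At the other end stood genes that the other ECs expressed and the set nearly lacked. The peptide gene Gal had no UMI in the set of either library, against 141 and 83.2 CPM in the other ECs. Setting the pool of members to 3 UMIs puts its log2 ratio at −5.91 or below in the PBS and −5.04 or below in the cGAMP library. Piezo2, a mechanically gated channel, had 1 UMI in each pool of members against 47.0 and 29.0 CPM in the other ECs. Cxcl12 was at 3.89 against 106 CPM and at 7.58 against 133, and Adm (adrenomedullin) at 21.8 against 219 and 6.74 against 180. The remaining 6 of the 10 lowest were Nos2, Kcnj8, Kcne3, Nr5a2, Cd276 and the haemoglobin gene Hbb-bs. Hbb-bs, a sign of red blood cell RNA, had no UMI in the set and was at 65.4 and 39.8 CPM in the other ECs.

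**Figure D3:**
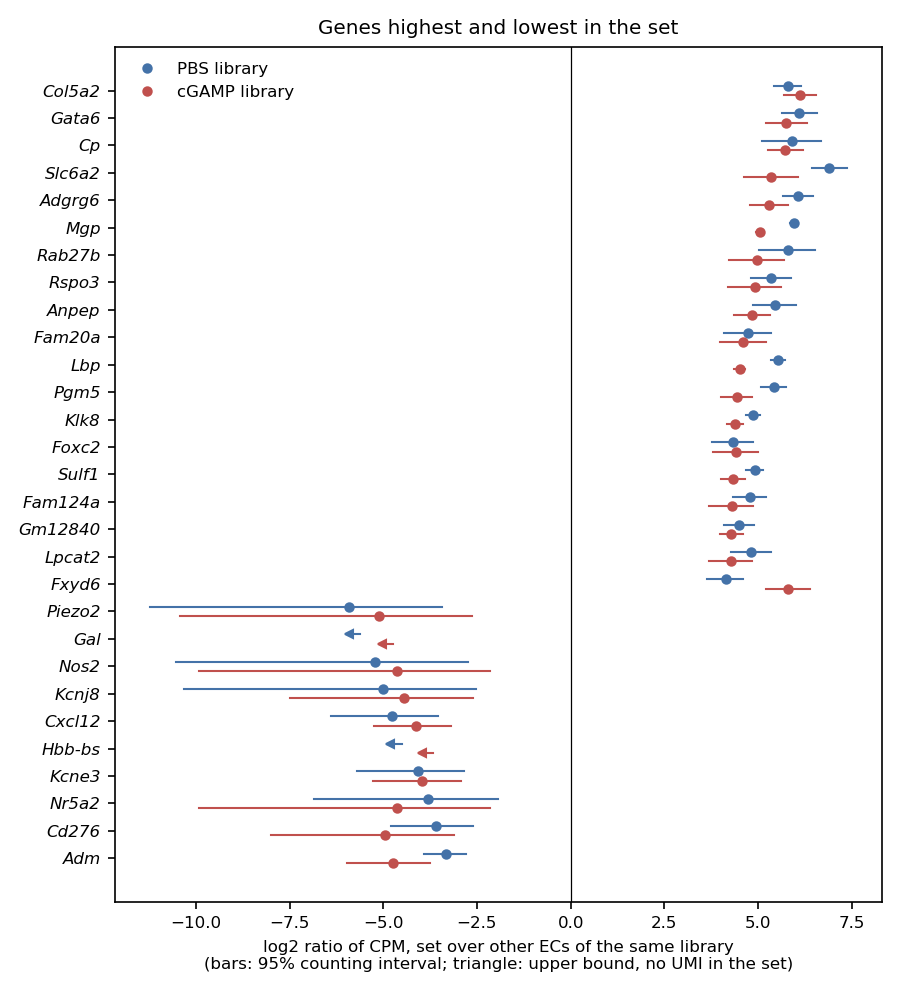
Log2 ratio of CPM, set over other ECs of the same library, of named genes among the 20 highest and 10 lowest outside the rule, with 95% counting intervals as bars, and triangles for genes without a UMI in the set. Points of the PBS and cGAMP libraries lie on the same side of 0 for every gene plotted.

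Grouped by function, the elastic fibre genes stood out against the basement membrane. Of 8 elastic fibre genes with at least 5 CPM other than Eln, 6 were at least 2-fold higher in the set of both libraries and none lower, with a median log2 ratio of 2.61 (PBS) and 2.94 (cGAMP). The lower of both medians fell to 1.50 (−0.97 to 5.06 over the genes) without cells with 3 or more UMIs of other cell types, and to 1.53 (−1.67 to 4.75) with a mitochondrial limit of 5%. Over all 9518 genes at that minimum, 559 were higher and 372 lower, with medians of 0.02 and 0.01. Fbln5, fibulin-5, which ECs need to assemble elastin, was at 993 CPM in the set against 112 in the other PBS-treated ECs and at 488 against 58.9 in the cGAMP library. Its relative Fbln2 was at 1233 against 104 and at 577 against 73.3 CPM. Fbn1, the fibrillin of microfibrils, stood at 84.8 against 2.12 and at 58.1 against 4.78, and the TGF-beta binding protein Ltbp4 at 285 against 89.4 and at 128 against 51.2. The crosslinking enzyme Lox was at 10.1 CPM in 7 PBS-treated and at 8.42 in 4 cGAMP-treated members, against 0.0551 and 0.0643.

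Of 14 basement membrane genes none was at least 2-fold higher and 5 were lower in both libraries, with median log2 ratios of −1.03 and −0.57. Nid2, a linker of laminin and collagen, was at 22.6 CPM in the set against 144 in the PBS library and at 11.8 against 93.1 in the cGAMP library. Col4a1 was at 1141 against 2652 and at 940 against 1689, less than 2-fold lower in the cGAMP library. Sparc, the most abundant gene of the list, had log2 ratios of −0.47 and −0.27. The 14 proteoglycan and matricellular genes went both ways, with 4 higher and 3 lower in both libraries and medians of −0.60 and −0.36. Bgn, the proteoglycan biglycan, was among the higher, at 633 against 36.9 CPM and at 692 against 48.9, and Sparcl1 among the lower, at 77.0 against 555 and at 44.6 against 355.

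Venous genes were high and tip cell genes low in the set. All 10 stalk-like markers, which describe venous-like tumour ECs, were at least 2-fold higher in both libraries. Selp was at 1237 CPM against 159 in the PBS library and at 1086 against 330 in the cGAMP library, and Ackr1 at 541 against 32.4 and at 898 against 157. Of 7 further venous markers, 5 were higher in both: Vwf, the venous transcription factor Nr2f2 (320 against 65.1 and 358 against 76.8 CPM), the adhesion molecules Vcam1 and Sele, and Ephb4. Of 10 tip-like markers, 9 were lower in both. Apln was at 90.2 CPM against 468 and at 8.42 against 347, and Esm1 at 38.1 against 336 and at 16.0 against 206. A single PBS-treated member held 58.6% of the Apln UMIs of its library's members, and 79.6% of those of Esm1 were in 1 cell.

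By rank within its library, the median member lay at the 97.7th percentile of the mean stalk-like value, and 88 of 100 members were in its top 10%. On the tip-like, proliferative and arterial scores the medians were 14.6, 26.9 and 48.3. Most of the set thus lay at the venous end of these tumour ECs, and it was next compared with the other ECs of that end.

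The comparison cells used here were picked after the data had been seen. Against the other ECs in the top 10% of the stalk-like score (196 PBS-treated and 102 cGAMP-treated), the elastic fibre genes of the set were still higher. Their median was 1.26 and 1.05 on the log2 scale and the stalk-like median was 0.83 and 0.36. For Mgp the log2 ratio was 3.98 and 2.51, for Col5a2 4.77 and 3.57, for Klk8 3.16 and 2.62, and for Fbln5 1.46 and 1.41. Selp (0.07 and −0.55) and Ackr1 (0.37 and −0.30) were at about the level of these cells in the PBS and below it in the cGAMP library. Both genes are in the stalk-like score that picked the comparison cells, so a high level there was fixed by the choice. Bgn of the proteoglycan list and Fbln2 of the elastic fibre list are in that score too. Proteoglycan and matricellular genes had medians of 0.17 and 0.22, and basement membrane genes a median of 0.02 in both. The stalk-scored ECs outside the set were thus as low in basement membrane genes as the set.

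**Figure D4:**
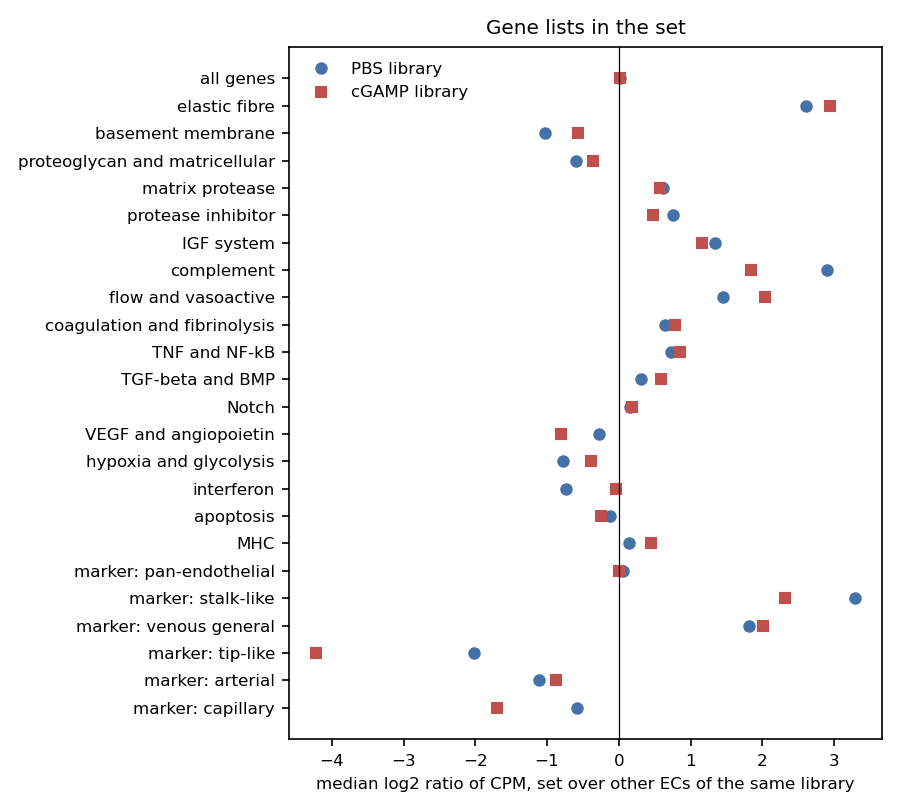
Median log2 ratio of CPM, set over other ECs of the same library, for each gene list (circles PBS, squares cGAMP). Stalk-like (3.29 and 2.31), complement (2.91 and 1.84) and elastic fibre genes (2.61 and 2.94) lie to the right, and tip-like genes (−2.02 and −4.21) to the left.

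Further lists described the same cells, and the lists share genes. Serping1, Icam1, Fbln2 and Bgn are also stalk-like markers, and Vcam1 and Sele are in both the venous and the TNF and NF-kB lists. The lists are therefore not separate observations. All 6 complement genes with enough UMIs were at least 2-fold higher in both libraries, among them the C1 inhibitor Serping1 (68.5 against 5.55 CPM and 648 against 181) and the decay-accelerating factor Cd55 (97.3 against 4.93 and 94.3 against 10.0). Of 8 flow and vasoactive genes 5 were higher. The shear-responsive factor Klf4 was at 693 against 146 and at 636 against 145 CPM, and Klf2 at 822 against 276 and at 1671 against 408. Ptgs1, the constitutive cyclooxygenase, was at 197 against 16.7 and at 124 against 18.8. In the TNF and NF-kB list 8 of 25 genes were higher in both and none lower, with Icam1 at 884 against 131 and at 847 against 187 CPM. Over the stalk-scored ECs the median of this list was 0.02 and 0.15 and that of the complement list 1.11 and 0.34. By these medians the stalk-scored ECs shared the first and part of the second, though Icam1 and Serping1 had helped to choose them. Of 9 Notch genes 1 was higher and 3 were lower in both, with medians of 0.16 and 0.19. Dll1, a Notch ligand, was at 121 against 11.2 and at 101 against 18.1, whereas Dll4, the ligand of tip and arterial cells, was at 63.0 against 163 and at 36.2 against 154.

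Of 10 IGF genes besides Igfbp5, 4 were higher in both libraries and 1 was lower. Igfbp4 (669 against 241 CPM and 734 against 173) and the insulin receptor Insr (516 against 137 and 295 against 117) were higher in the set, while Igfbp3 was lower, at 491 against 2584 and at 529 against 2112. Igfbp7, the most abundant of them, was at 4795 against 6834 and at 4717 against 6338.

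A few members carried lymphatic or valve genes. Prox1, the transcription factor of lymphatic ECs and of valves, was at 107 CPM in the PBS-treated members against 0.529 in the other ECs, and at 13.5 against 0.756 in the cGAMP library. A UMI was seen in 18 and 8 members, and 5 PBS-treated but no cGAMP-treated members had 5 UMIs or more. Lyve1 was below the other ECs (2.33 against 10.3 and 0.842 against 44.4 CPM), as was Flt4, and Ccl21a had no UMI in the set. Nfatc1, active in valve endothelium, was at 91.0 against 29.0 and at 58.1 against 17.8, and Cytl1 at 27.2 CPM in 9 and 12.6 in 5 members. The set is given no lymphatic or valve name here.

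On genes outside the rule, members lay near each other. Among the 20 nearest cells of a PBS-treated member in the same library, in 30 principal components of 2500 variable genes computed without the 7 markers, 57.1% were members, who make up 2.30% of the library. For cGAMP-treated members the share was 49.4% against 3.13%. Around other ECs it was 0.301% and 1.07%. In each library 2 members had no other member among their 20 nearest cells.

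The set was not uniform, and presence of Igfbp5 divided it. Igfbp5 and Eln were both seen in 18 members (15 PBS-treated and 3 cGAMP-treated), Igfbp5 without Eln in 27, Eln without Igfbp5 in 45 and neither in 10. A sum score makes such a split more likely, since a cell rich in 1 marker needs less of another to pass. Other genes, which the rule did not use, differed along with it. In the cGAMP library Mgp had no UMI in the 20 members with Igfbp5 and was at 2151 CPM in the 22 without, of which 19 had a UMI. In the PBS library it was at 398 CPM in 15 of 25 members with Igfbp5 and at 1646 in 23 of 33 without.

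The genes for the following comparison were picked after their values had been seen. Members with Igfbp5 had more Igfbp3 (915 against 100 CPM in the PBS library and 917 against 149 in the cGAMP library). Of these UMIs, 83.3% and 75.1% were in 2 cells each, and without the 2 cells highest in each kind of member the levels were 190 against 44.9 and 255 against 43.2 CPM. The same members had more of the secreted hormone Stc1 (870 against 262 and 801 against 260) and more of the endothelin receptor Ednrb (790 against 217 and 403 against 150). Members without it had more Bgn (838 against 409 and 1195 against 180), Htra1, a secreted protease (92.7 against 37.3 and 88.4 against 10.2), and Col5a2 (128 against 50.3, and 184 against no UMI). The tight junction gene Cldn5 was at a like level in both kinds of PBS-treated members, 193 with and 212 without Igfbp5, but at 1119 and 259 CPM in the cGAMP-treated. It was seen in 17 of 20 members with Igfbp5 there and in 6 of 22 without. Leaving out the 2 highest cells of each kind, Cldn5 was at 123 with and 72.8 without Igfbp5 in the PBS library, and at 844 and 23.5 CPM in the cGAMP library.

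The division by presence of Igfbp5 was sharper in the cGAMP library, where most members with Igfbp5 had many UMIs of it, as given above. Of the 20 nearest cells of a cGAMP-treated member with Igfbp5, 45.3% were members with Igfbp5 and 2.0% members without. In the PBS library these shares were 26.0% and 33.8%. Around members without Igfbp5, 38.2% were of their own kind and 13.2% of the other with cGAMP, and 32.3% and 22.7% with PBS, a weaker division. Since cGAMP-treated members with Igfbp5 lacked Mgp and mostly Eln, the levels of these genes in the cGAMP-treated set come almost wholly from the members without Igfbp5.

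Treatment was then compared inside the set. Among the 6440 genes that reached 20 CPM in the members of either library, 209 (3.25%) were at least 2-fold higher with cGAMP and 310 (4.81%) lower. In the other ECs, whose pools hold far more UMIs (90795793 and 62179517 against 1285353 and 1187229 in the set), 103 of 6040 genes (1.71%) were higher and 81 (1.34%) lower. The counts of both pools cannot be set against each other, since smaller pools scatter more. The share of ECs in the set was 0.83 percentage points higher with cGAMP, with a counting interval of −0.26 to 2.04, and among the 50 highest-scoring cells 35 were PBS-treated and 15 cGAMP-treated, so that the share was then lower with cGAMP.

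Interferon-responsive genes were higher in the cGAMP-treated members. Of 34 genes on the list with at least 5 CPM, 32 were at least 2-fold higher and none lower, with a median log2 ratio of 1.95 (1.76 to 2.63), against −0.09 over all 9919 genes at that minimum. In the other ECs 26 of 34 were higher, with a median of 1.41. Irf7, the master factor of the interferon response, was at 19.5 CPM in PBS-treated and 601 in cGAMP-treated members (log2 ratio 4.95, 4.37 to 5.59), with a UMI in 12 of 58 and 41 of 42 cells. Outside the set Irf7 was at 83.6 and 652 CPM. Zbp1, a sensor of Z-form nucleic acid, went from 2.33 to 148 CPM and from a UMI in 1 member to 36.

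The antiviral genes Ifit3 and Ifit1 were at 5.45 and 7.0 CPM in PBS-treated and at 104 and 101 in cGAMP-treated members. In the other ECs they were at 39.7 and 45.1 with PBS and at 144 and 114 with cGAMP. The members thus lay below the other ECs in the PBS library and nearer to them in the cGAMP library. Over the list the median log2 ratio of set over other ECs was −0.74 with PBS and −0.04 with cGAMP. The same held for Irf7 and Isg15 (84.0 against 249 CPM with PBS, 521 against 820 with cGAMP). Ifi27l2a was the only gene of the list higher in the set of both libraries, at 124 against 8.93 and at 740 against 83.3 CPM. Set against the stalk-scored ECs instead, interferon genes had a median log2 ratio of −0.62 with PBS and −0.39 with cGAMP. By this measure the set stayed below them in both libraries, and the medians lay closer together than those against all other ECs. Whether the larger response belongs to the set or to the venous end as a whole was not tested.

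Both genes of this pair carry motifs of the interferon-stimulated response element close to their start, which is why their upstream sequence is shown. The element was searched as GAAANNGAAA on both strands, N being any base, in the 250 bases upstream of the start of each RefSeq promoter on GRCm38. It was in 821 of 27025 promoters (3.04%) and in 14 of the 27 of 35 interferon genes that had a promoter sequence (51.9%). Of the 10 genes with the largest ratio of cGAMP over PBS in the set 5 had a promoter sequence, and those of Ifit3 and Ifit1 held it. Among the 20 leading genes of the set 9 had a promoter sequence and none held this motif. GATAA was in 2 of those 9 (22.2%) and in 23.02% of all promoters. Capitals mark the matches, which lie on the reverse strand and begin 156 and 122 bases before the start of Ifit3 (chr19:34583279-34583528, plus strand) and 104 and 85 bases before that of Ifit1 (chr19:34640639-34640888, plus strand).
Ifit3: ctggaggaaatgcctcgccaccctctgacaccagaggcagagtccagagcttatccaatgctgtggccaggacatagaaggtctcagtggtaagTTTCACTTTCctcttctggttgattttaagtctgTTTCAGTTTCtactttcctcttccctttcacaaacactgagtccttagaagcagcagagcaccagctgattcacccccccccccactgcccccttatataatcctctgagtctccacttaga
Ifit1: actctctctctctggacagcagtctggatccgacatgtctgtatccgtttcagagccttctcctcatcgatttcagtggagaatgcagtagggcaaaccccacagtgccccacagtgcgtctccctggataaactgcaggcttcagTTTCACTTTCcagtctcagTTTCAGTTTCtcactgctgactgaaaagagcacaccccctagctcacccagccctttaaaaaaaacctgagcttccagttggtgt
The matches describe these windows and do not show that a factor bound there.

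Much of the chemokine RNA of the set came from single cells. Ccl5, which draws T cells, had 1 UMI in the PBS-treated members (0.778 CPM) and was at 1483 CPM in the cGAMP-treated, a log2 ratio of 10.90 (8.42 to 16.20). A UMI was seen in 26 of 42 cells, but 1 cell held 57.5% of them with 1012 UMIs. Without it the level was 661 CPM, which still counts 404 UMIs of a second cell. The level without both cells was not computed. Outside the set Ccl5 was at 6.55 and 441 CPM. Cxcl9 went from 5.45 to 222 CPM in the set, with 49.4% in 1 cell, and from 132 to 1169 in the other ECs. Cxcl10 was the exception of the list. It was at 56.0 and 48.8 CPM in the set (log2 ratio −0.20, −0.72 to 0.32) and at 93.1 and 248 in the other ECs.

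**Figure D5:**
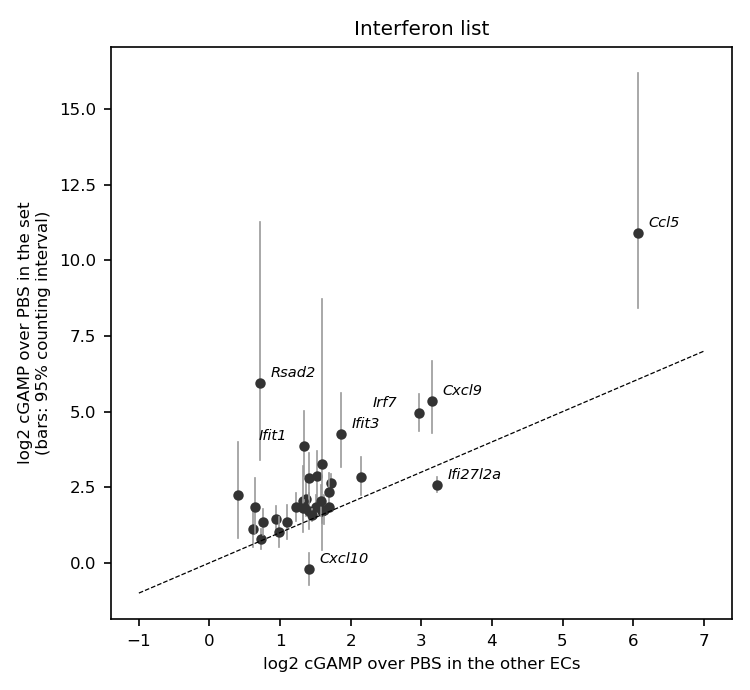
Log2 ratio of cGAMP over PBS of the interferon genes in the other ECs (x axis) and in the set (y axis), one point per gene, with 95% counting intervals of the set as bars and the line of equal ratios dashed. Ccl5 (10.90 against 6.07), Irf7 (4.95 against 2.96) and Ifit3 (4.26 against 1.86) lie above the line, and Cxcl10 (−0.20 against 1.42) below it.

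Complement and antigen presentation genes were also higher with cGAMP. Among the 10 highest ratios in the set were C1ra (6.22 to 69.1 CPM), Serping1 (68.5 to 648) and Cfb, complement factor B (14 to 128). In the other ECs these went from 1.37 to 16.0, from 5.55 to 181 and from 4.23 to 61.3 CPM. The tropomyosin-related Tpm3-rs7 (18.7 to 180), which may share reads with Tpm3, was the other. All 10 MHC genes with enough UMIs were at least 2-fold higher, with a median of 1.97 against 1.68 in the other ECs. H2-K1 went from 966 to 4246 CPM and from 1141 to 3419 in the other ECs.

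Matrix genes went both ways with cGAMP. Of 10 elastic fibre genes in the set, Eln left out, 3 were at least 2-fold higher and 4 lower. Their median was −0.68 (−1.16 to 1.70 over the genes). In the other ECs none of 6 was higher and 1 lower, and the median was −0.66. Of 16 proteoglycan and matricellular genes 2 were higher and 4 lower (median −0.15), and of 14 basement membrane genes none was higher and 1 lower (median −0.34). Over all 9919 genes at 5 CPM or more in the set, 558 were at least 2-fold higher and 919 lower (median −0.09). Fbln2 went from 1233 to 577 CPM in the set (log2 ratio −1.10, −1.23 to −0.97) and from 104 to 73.3 outside, and Fbln5 from 993 to 488 and from 112 to 58.9. Mgp (log2 ratio 0.05) and Igfbp5 (−0.02) were at the same level in both libraries' members within their counting intervals, Igfbp5 being a gene that chose them.

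The 10 lowest ratios were mostly genes of cell division. Prc1, Cenpa, Pclaf, Birc5, Mki67, Cenpf and Cdca8 were at 56.8 to 133 CPM in the PBS-treated members and had 0 to 3 UMIs in the cGAMP-treated. Mki67, the common marker of cycling cells, went from 133 to 2.53 CPM in the set (log2 ratio −5.72, −8.01 to −4.15) and from 122 to 53.4 in the other ECs. These values rest on few cells: 10 UMIs or more of Top2a were found in 5 PBS-treated members and no cGAMP-treated member, and Mki67 was seen in 11 and 3. Without the 10 members with 5 or more UMIs of proliferative markers, 290 genes were at least 2-fold lower. Chga, the other extreme, was a single PBS-treated cell with 98.5% of the UMIs.

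Also among the 10 was a gene seen mainly in some PBS-treated members. Ptn, the growth factor pleiotrophin, was at 91.8 CPM in 16 PBS-treated members and at 2.53 in 3 cGAMP-treated. In the other ECs of each library it was below 1 CPM. Prox1 was lower as well, at 107 and 13.5 CPM. A few PBS-treated members weighed heavily in both genes. Single cells held 51 and 32 UMIs of Prox1, and others 36 and 28 of Ptn. Levels without those cells are not given here.

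The ratio of cGAMP over PBS was furthest above that of the other ECs for Ccl5, Zbp1, Ifit1, Ifit3 and Cxcl9, and furthest below it for Pclaf, Chga, Prc1, Cenpa and Birc5, among genes at 50 CPM or more whose counting intervals did not overlap. The difference itself could not be tested with 1 library per condition.

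The response also differed in size between the kinds of member, though members with Igfbp5 held fewer UMIs of it in the PBS library, as given above. Over interferon genes at 20 CPM or more, cGAMP-treated over PBS-treated members had a median log2 ratio of 1.53 with Igfbp5 (32 genes) and of 2.72 without it (33). With PBS the median ratio of members with over without Igfbp5 was 0.12, and with cGAMP −0.93. Gbp5, an interferon-induced GTPase, was at 47.1 CPM with PBS and 17 with cGAMP in members with Igfbp5, and at 7.47 and 153 in those without. Iigp1 showed the same order, at 299 and 252 with Igfbp5 and at 169 and 1133 without. Irf7, by contrast, was higher with cGAMP in both, from 8.11 to 413 and from 29.9 to 784 CPM.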

How the data were processed

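ECs of implanted LLC tumours were profiled by droplet-based scRNA-seq in 2 libraries, PBS and cGAMP, with 1 mouse each and hence no replicates. Reads were processed with Cell Ranger 3.0.0 (mm10) and Seurat 3.1.1, per the submitters' notes. The kit was version 3 in the methods and version 2 in the labels. The authors removed cells with fewer than 500 genes or over 10% mitochondrial UMIs, genes in fewer than 3 cells, and clusters negative for Pecam1. Deposited by the authors is the natural log of 1 plus UMIs per 10000 UMIs of the cell. Whole UMI counts were recovered by undoing the logarithm. In all, 1 cell barcode was found in both libraries.

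UMIs were summed over the members and over the other ECs of each library and given as CPM, with log2 ratios, exact Poisson intervals for levels, conditional binomial intervals for ratios and Clopper-Pearson intervals for shares, at 95%. A sum of 0 was set to a floor of 3 UMIs per pool of cells. Counts of 2-fold differences took genes with at least 20 CPM on either side, and list medians took 5 CPM. No p-value was computed. The members and gene lists were chosen with earlier results of these data known. Named genes are the 7 of the rule, the 20 highest and 10 lowest ratios of set over other ECs, the 10 highest and 10 lowest ratios of cGAMP over PBS in the set (at least 50 CPM), the 5 in each direction that differed most from the other ECs, and examples from the lists. Some genes that the rule names are not reported here. Genes that divide the members by Igfbp5 were chosen after their values were seen, and the stalk-scored comparison cells after the data had been seen. The calculation was tested on simulated Poisson counts of 6035 genes, at the depth of the cGAMP over PBS comparison inside the set. All 200 changed genes had the right sign, and 96% of intervals held the true ratio. Poisson counts are what the intervals assume, so this checks the arithmetic only. It does not cover the uneven spread of UMIs over cells. Python 3.11.15, numpy 2.4.6, scipy 1.17.1 and pandas 2.3.3 were used, with coordinates from GENCODE on GRCm38. Alternatives changed the number of cells, the score, the depth, the cells left out, the scaling and the minimum level.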

Additional observations from a re-analysis of the deposited data

Results flagged for a closer look

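Among 178 named or listed genes with at least 50 CPM in both the set and the other ECs, 12 had log2 ratios of cGAMP over PBS on opposite sides of 0 in the set and outside it, with counting intervals that excluded 0 in both. The difference was not tested, because each condition is 1 library, and the intervals cover counting error only. In 98 of the 178 genes the intervals of the set and of the other ECs did not overlap. The 178 include genes named because their response differed between the set and the other ECs. The same count over all genes was not made. Values below are the log2 ratio in the set minus that in the other ECs.

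In 9 genes the set was lower with cGAMP and the other ECs higher. The fatty acid carriers Fabp5 (−1.45) and Fabp4 (−1.35) and the fatty acid receptor Cd36 (−0.88) were among them. Fabp4 went from 2102 to 1328 CPM in the set and from 1525 to 2462 outside it. Angpt2, a destabilising ligand of Tie2, differed by −1.44 and went from 66.1 to 36.2 CPM in the set and from 384 to 570 outside. In the set 1 PBS-treated cell held 77.6% of its UMIs, and without the highest cell of each library the levels were 15.6 and 19.9 CPM, so that the direction turned. The venous markers Selp (−1.24) and Slco2a1 (−0.73), the protease Adamts1 (−0.77), the apelin receptor Aplnr (−0.59) and Eng (−0.22), a TGF-beta co-receptor, completed this group. Selp was at 1237 and 1086 CPM in the set and at 159 and 330 outside.

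In 3 genes the direction was the other one. Cldn5 differed by 2.04: it went from 203 to 685 CPM in the set, and from 656 to 539 in the other ECs. Within the set this was seen in members with Igfbp5, at 193 and 1119 CPM, whereas members without it were at 212 and 259, or 72.8 and 23.5 without the 2 highest cells of each. Gpihbp1, the capillary anchor of lipoprotein lipase, differed by 1.24 (88.7 to 166 CPM in the set and 1231 to 978 outside), and the cathepsin Ctsl by 0.91 (303 to 510 and 998 to 892).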

How the results depend on the processing

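In all, 22 alternatives were tried, 17 of them planned and 5 chosen after seeing the data. The share of ECs in the set, 0.83 percentage points higher with cGAMP, became −0.27 with the 50 highest-scoring cells and 2.40 with a mitochondrial limit of 5%. Counts of genes higher and lower in the set (339 and 179) became 221 and 98 at 50 CPM, 204 and 81 without cells with 3 or more UMIs of other cell types, and 119 lower with 200 cells. Counts higher and lower with cGAMP in the set (209 and 310) became 341 and 526 with 50 cells, 111 and 102 at 50 CPM, 410 and 546 in members without Igfbp5, and 569 lower in those with it and 175 lower with 200 cells. The interferon median (1.95) became 1.61 with thinned scores, 1.74 with single-cell means, 1.73 without Ctsh, 1.71 without Eln and 1.48 in members with Igfbp5. The lowest held-out ratio (3.45) became 3.79 at the 5% mitochondrial limit. The share of members among neighbours, in the lower library (49.4%), became 25.3% with 50 cells, 39.4% with thinned scores, 45.4% with equal shares per library, 32.4% at the 5% mitochondrial limit, 24% without cells with UMIs of other types, 43.9% without Igfbp5, 45.0% without Ctsh, and 39.2% and 39.8% in members with and without Igfbp5. The elastic fibre median (2.61, the lower of both libraries) ranged from 1.50 without cells with UMIs of other types to 3.43 in members without Igfbp5, all within the wide interval of the median over its genes (0.60 to 5.33).

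Of 1089 values of named genes, 879 stayed within the counting interval, 205 moved and 5 turned direction. Mgp became −2.69 in members with Igfbp5, where the cGAMP-treated had no UMI. Without cells with 3 or more UMIs of other types, Kcnj8 became 0.20, Kcne3 0.71 and Pclaf 0.68. The Kcnj8 value is an upper bound at the floor of 3 UMIs, since those members had no UMI of it. It does not show a higher level in the set. Kcnj8 is itself one of the 52 markers that removed cells. Pclaf also became 0.0037 with 200 cells. Leaving out cells with UMIs of other types kept 44 of the 100 members, and Itga2b made up 27.2% and 39.2% of the UMIs behind it in the PBS-treated and cGAMP-treated members. The cause of the other changes was not tested.

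No paired analysis was possible because each condition has 1 library. The minimum level cannot change a held-out ratio, nor the scaling a share of cells, so those were not run. At this depth 1 UMI is worth 0.778 CPM in the PBS-treated and 0.842 in the cGAMP-treated members, and genes below about 5 CPM could not be compared.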

Other observations

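Further signalling lists held genes higher and genes lower in the set. Of 16 TGF-beta and BMP genes, 3 were at least 2-fold higher in the set of both libraries and 2 lower, with median log2 ratios of 0.32 and 0.59. Bmp4 was at 64.6 CPM in the set against 14.7 in the other PBS-treated ECs, and at 108 against 25.4 in the cGAMP library. Bmp2 was at 4.67 against 78.6 and at 7.58 against 68.1. Of 25 apoptosis genes, 1 was higher and 2 lower in both, with medians of −0.13 and −0.24. Over all 9518 genes at 5 CPM or more, 559 were higher and 372 lower in both. The apoptosis counts are thus near the share over all genes.

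Of 11 VEGF and angiopoietin genes, 3 were higher and 3 lower in both, with medians of −0.28 and −0.81. The lymphangiogenic growth factor Vegfc was at 63.0 CPM against 28.9 in the PBS library and at 85.1 against 37.2 in the cGAMP library, and the co-receptor Nrp2 at 329 against 105 and at 210 against 96.7. Lower were Angpt2, Apln and Flt4. Kdr, the main VEGF receptor, was at 226 against 310 and at 167 against 292. The protease inhibitor Timp2 was at 420 against 45.5 and at 378 against 51.3, in 55 and 41 members. Stmn2, a regulator of microtubules listed with the arterial markers, was at 273 against 24.8 and at 115 against 7.43 CPM, while Gja4, an arterial connexin, was seen in 3 members only. The cytokine gene Il6 was at 132 against 31.5 and at 255 against 89.7, with a UMI in 40 of 58 and 38 of 42 members.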
